A study of Mus musculus with 6 samples.

Results

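Aldosterone-regulated sodium transport was followed through 10 genes in dissected mouse kidney epithelium: Scnn1a, Scnn1b, Scnn1g, Nr3c2, Hsd11b2, Sgk1, Nedd4l, Wnk1, Wnk4 and Stk39. The list was set by gene name, with earlier results of these data known. Its genes make up 10 of the 18193 genes that the arrays measured by a probe set listed to a single gene. A probe set is a group of short array probes that together report 1 transcript region. The 10 genes had 19 such probe sets in all, with 1 each for 7 genes, 6 for Nedd4l and 3 each for Wnk1 and Stk39. Each gene was read by its probe set with the highest mean over all arrays, and the others are given beside it.

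Expression was measured on 6 Affymetrix arrays, 1 per sample. Samples 1 to 3 of the knockout group are cystic renal epithelium macro-dissected from Fh1 knockout mice, and samples 1 to 3 of the control group are renal epithelium from wild-type, disease-free littermates matched for sex. Fh1 encodes fumarate hydratase, the enzyme of the tricarboxylic acid cycle that turns fumarate into malate. The sources used here give no strain, no age and no driver or cell type for the Fh1 deletion. The labels do not say that each sample came from its own animal, so a p-value here measures the spread between these samples, which may be technical. Levels are given as log2 RMA values, on which a difference of 1 is a doubling. Fh1 itself read 12.41, 12.34 and 12.22 in wild-type and 11.54, 11.60 and 11.61 in knockout arrays by its single probe set, so every library labelled knockout was below every wild-type one (log2 fold change -0.74, SE 0.08, limma adjusted p = 0.000396). Whether that probe set lies in the deleted part of the gene was not analysed here. The RMA values carry no detection call and no counting depth, and the number of arrays limits their precision.

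Aldosterone acts on the last part of the nephron, from the distal convoluted tubule to the principal cells of the collecting duct. It binds the mineralocorticoid receptor, which raises transcription of the kinase SGK1. SGK1 phosphorylates the ubiquitin ligase encoded by Nedd4l, and the epithelial sodium channel ENaC, a target of that ligase, then stays longer in the apical membrane. A parallel kinase cascade from the WNK kinases to SPAK, the product of Stk39, activates the thiazide-sensitive sodium chloride cotransporter.

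In the Fh1 knockout, 4 of the 10 genes, by their brightest probe sets, were lower by limma with Benjamini-Hochberg adjustment at 0.05. None was higher by its brightest probe set, though 3 dimmer probe sets of Nedd4l and Wnk1 were called higher, as given below. No member was higher at an unadjusted p under 0.05 either (0 of 10). The share of all genes at that unadjusted threshold was not counted, so this 0 cannot be set against it. The count of lower genes was 3 without wild-type array 1 or without wild-type array 3, and 2 without any 1 of the other 4 arrays. All genes called in either direction also became fewer with each array left out, numbering 6277 to 8670 against 8959 with all arrays. The genes that fell were Sgk1, Wnk4, the ENaC alpha subunit gene Scnn1a, and Wnk1 as read by its brightest probe set. Their fold changes ran from 1.41-fold lower for Wnk1 to 1.85-fold lower for Sgk1. The median log2 fold change of the 10 genes was -0.024, against -0.11 for all 18193 genes. Of all genes tested, 49.2% were called in either direction, 27.7% lower and 21.6% higher. With both directions pooled, the 4 called members of 10 (40.0%) were no larger a share than that of all genes. Counted by direction, the share of lower members was above the 27.7%, and the 0 higher members were below the 21.6%. Neither difference in share was tested. All 10 genes were brighter on average than the median gene, at the 53.3rd to the 98.1st percentile of mean level. Among the 9097 genes at or above the median level the median log2 fold change was 0.052, above that of the members, and 58% were called, 25.7% lower and 32.4% higher. In that test 3 members were lower and 0 higher.

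**Figure D1:**
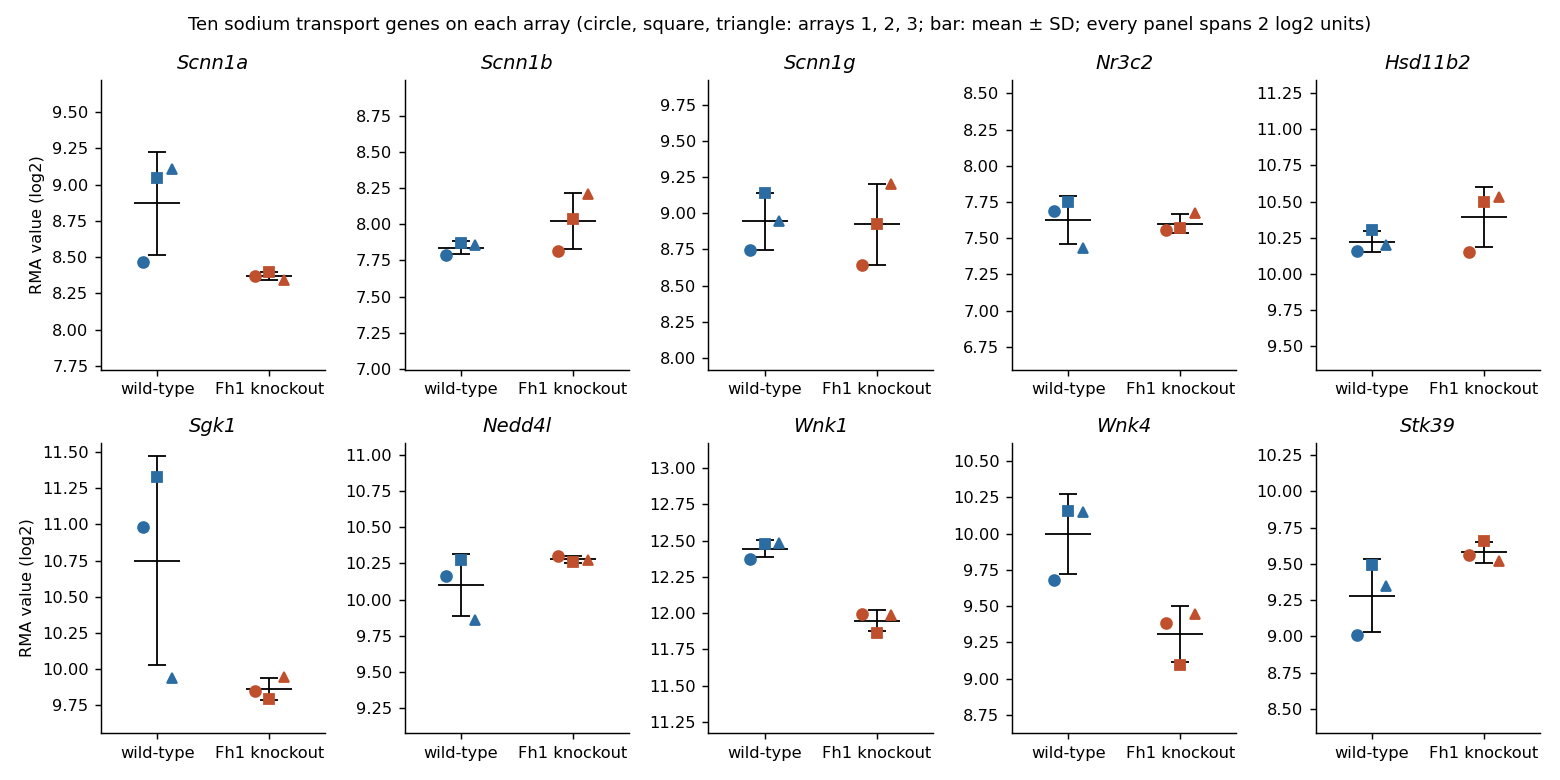
RMA values (log2, vertical axis) of the 10 genes on the 3 wild-type arrays (blue) and the 3 Fh1 knockout arrays (red), with circles, squares and triangles for arrays 1, 2 and 3 and bars for mean ± SD. The groups stand apart for Scnn1a, Wnk1, Wnk4 and Stk39, and the 3 wild-type values of Sgk1 spread from 9.94 to 11.32.

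Markers of the nephron segments moved in the same arrays, and fewer cells of a type cannot be told apart in bulk tissue from less RNA per cell. Of 9 principal cell markers, 3 were lower, 1 was higher and 5 did not pass, with a median log2 fold change of -0.0068. Aqp4, a basolateral water channel of principal cells, fell 4.28-fold (log2 fold change -2.10, SE 0.14), whereas Gata3, a transcription factor of the collecting duct lineage, rose 2.34-fold (log2 fold change 1.23, SE 0.18). Their adjusted p-values were 4.73e-05 and 0.00144 by limma. Aqp2, the vasopressin-regulated water channel that defines principal cells, read 11.32, 11.47 and 11.18 in wild-type and 10.86, 11.11 and 11.31 in knockout arrays and did not pass (limma adjusted p = 0.179; chosen after its values were seen). Of 8 markers of the thick limb and distal convoluted tubule 7 were lower, with a median of -0.94, and all 8 proximal tubule markers were lower, with a median of -2.12. Of 7 measured intercalated cell markers 5 were lower (median -1.17). Immune cell markers moved the other way, with 9 of 10 higher and a median of 1.85, as did 6 of 8 fibroblast and matrix markers (median 1.52). The mean log2 level of the principal cell list ran from 9.61 to 9.99 in wild-type and from 9.40 to 9.79 in knockout arrays. That of the thick limb and distal convoluted tubule list ran from 11.74 to 11.84 in wild-type and from 9.89 to 10.47 in knockout arrays, and that of the immune list from 8.50 to 8.75 and from 10.12 to 10.51. How far these marker shifts account for the values of the 10 genes was not tested.

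Neither the receptor gene nor its guarding enzyme passed the test. Nr3c2, the mineralocorticoid receptor, read 7.69, 7.75 and 7.43 in wild-type arrays 1 to 3 and 7.56, 7.57 and 7.67 in knockout arrays 1 to 3. All knockout values lay inside the wild-type range. The log2 fold change was -0.027 with a 95% interval from -0.27 to 0.21 (limma adjusted p = 0.84). Hsd11b2 encodes the dehydrogenase that inactivates corticosterone and so keeps the receptor open to aldosterone. It read 10.16, 10.30 and 10.20 in wild-type and 10.15, 10.50 and 10.53 in knockout arrays. Knockout arrays 2 and 3 lay above the wild-type range and knockout array 1 just below it. The log2 fold change was 0.17 with a 95% interval from -0.10 to 0.44 (limma adjusted p = 0.248).

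By the brightest probe set of each gene, Sgk1, the aldosterone-induced kinase, had the largest change and the widest wild-type spread of the 10 genes. Dimmer probe sets of Nedd4l (1457374_at, log2 fold change 1.33) and Wnk1 (1436746_at, 0.94) moved further, both upward. Sgk1 read 10.98, 11.32 and 9.94 in wild-type arrays 1 to 3 and 9.85, 9.80 and 9.95 in knockout arrays 1 to 3. Wild-type array 3 therefore lay within the knockout values, and the groups overlapped. Group means were 10.75 ± 0.72 (SD, n = 3) for wild-type and 9.86 ± 0.08 (SD, n = 3) for knockout arrays, a log2 fold change of -0.88 (SE 0.31, limma adjusted p = 0.0465). Without wild-type array 3 the log2 fold change was -1.29 (adjusted p = 0.000597). The call was lost when any of the remaining 5 arrays was dropped (log2 fold change -0.60 to -0.92, adjusted p = 0.0932 to 0.122), as it was with a trended robust prior (adjusted p = 0.0763) and with a test of the brighter genes alone (adjusted p = 0.0502).

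Sgk1 is induced by corticosteroids through its promoter, so its window with a match to the receptor motif is shown. RefSeq promoter windows of GRCm38.p6, cut here to the 250 bases before a start, matched 7 of the 10 genes (Scnn1b, Scnn1g, Nr3c2, Sgk1, Wnk1, Wnk4 and Stk39), with 12 windows in all and 6 of them for Sgk1. The motif searched was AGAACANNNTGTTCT, the palindrome bound by glucocorticoid and mineralocorticoid receptors, which reads the same on both strands. The window at chr10:21993640-21993889, plus strand, is printed 5′ to 3′ with the 15 bases of the match in capitals.
Sgk1: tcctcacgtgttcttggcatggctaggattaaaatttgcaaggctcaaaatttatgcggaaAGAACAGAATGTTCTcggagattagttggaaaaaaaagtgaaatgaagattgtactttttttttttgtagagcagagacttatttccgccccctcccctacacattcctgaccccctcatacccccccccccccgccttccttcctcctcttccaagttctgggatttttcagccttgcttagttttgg
The match lies 189 to 175 bases before that start. It was found in 1 of the 12 member windows and in 3 of 32851 windows of the same length over all genes (0.00913%). A single arm of the palindrome, AGAACA or TGTTCT, on its own or within the full match, was present in 3 of the 12 windows, all of Sgk1, and in 16.1% of all windows. These matches describe the letters of the windows only.

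Other genes tied to corticosteroid receptors were read from a separate list of 10, of which 4 were lower, 2 higher and 4 did not pass. Usp2, a deubiquitinase induced by aldosterone that acts on ENaC, fell 3.05-fold. It read 10.20, 9.72 and 10.29 in wild-type and 8.51, 8.38 and 8.49 in knockout arrays (log2 fold change -1.61, SE 0.15, limma adjusted p = 0.000173). Edn1, the precursor of endothelin, an inhibitor of collecting duct sodium uptake, rose 3.17-fold. It read 7.38, 7.44 and 7.20 in wild-type and 9.13, 8.75 and 9.13 in knockout arrays (log2 fold change 1.66, SE 0.13, limma adjusted p = 7.97e-05). Wild-type and knockout values of both genes stood apart, and both calls held with each array left out in turn. Tsc22d3, the glucocorticoid-induced leucine zipper gene, was 2.07-fold lower (log2 fold change -1.05, SE 0.12, limma adjusted p = 0.000392). Fkbp5, a steroid receptor chaperone induced by glucocorticoid, did not pass (adjusted p = 0.214). Its wild-type arrays read 10.31, 8.41 and 9.22 and its knockout arrays 8.60, 8.62 and 8.78. The highest wild-type array for Fkbp5 was array 1 and the lowest array 2, whereas for Sgk1 array 2 was the highest and array 3 the lowest. Tsc22d3 read 9.04, 8.68 and 8.87 in wild-type arrays, in the same order as Fkbp5. Edn1 had the order of Sgk1, and Usp2 was highest in array 3 and lowest in array 2. The source of these orders was not tested. Both Tsc22d3 and Fkbp5 were picked with their values already known.

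Of the 3 ENaC subunit genes, 1 was lower and 2 did not pass. Scnn1a, the alpha subunit that the channel cannot form without, read 8.46, 9.04 and 9.11 in wild-type and 8.37, 8.40 and 8.34 in knockout arrays. Every knockout array read lower than every wild-type array, though wild-type array 1 was within 0.1 of the highest knockout array. Means were 8.87 ± 0.35 (SD, n = 3) and 8.37 ± 0.03 (SD, n = 3), a 1.42-fold decrease (log2 fold change -0.50, SE 0.16, limma adjusted p = 0.0368). Without wild-type array 1 the log2 fold change was -0.71 (adjusted p = 0.0014). Dropping any of the remaining 5 arrays lost the call (log2 fold change -0.39 to -0.52, adjusted p = 0.0836 to 0.102), and array weights gave -0.40 (adjusted p = 0.0541).

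Scnn1b, the beta subunit, read 7.79, 7.87 and 7.85 in wild-type and 7.82, 8.04 and 8.21 in knockout arrays. Knockout arrays 2 and 3 lay above the wild-type range and knockout array 1 inside it. The log2 fold change was 0.18 with a 95% interval from -0.07 to 0.44 (limma adjusted p = 0.194). Scnn1g, the gamma subunit, read 8.75, 9.14 and 8.95 in wild-type and 8.64, 8.93 and 9.20 in knockout arrays. Knockout array 3 lay above the wild-type range, knockout array 1 below it and knockout array 2 inside it. The log2 fold change was -0.021 with a 95% interval from -0.39 to 0.35 (limma adjusted p = 0.918).

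Differences between subunits were also taken within each array, where a shift common to both genes cancels. Scnn1b minus Scnn1a was -0.68, -1.17 and -1.25 in wild-type and -0.55, -0.36 and -0.14 in knockout arrays, so all knockout differences lay above all wild-type ones. The mean difference moved by 0.69 on the log2 scale. The difference Scnn1g minus Scnn1a moved by 0.48, with 2 of 3 knockout arrays above the wild-type range, and Scnn1g minus Scnn1b by -0.20. Over the 6 differences computed between members, exact two-sided permutation p-values over the arrays ran from 0.1 to 0.3 and the adjusted values from 0.24 to 0.3. The smallest p that 3 arrays against 3 allow is 0.1, so no such difference could pass.

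**Figure D2:**
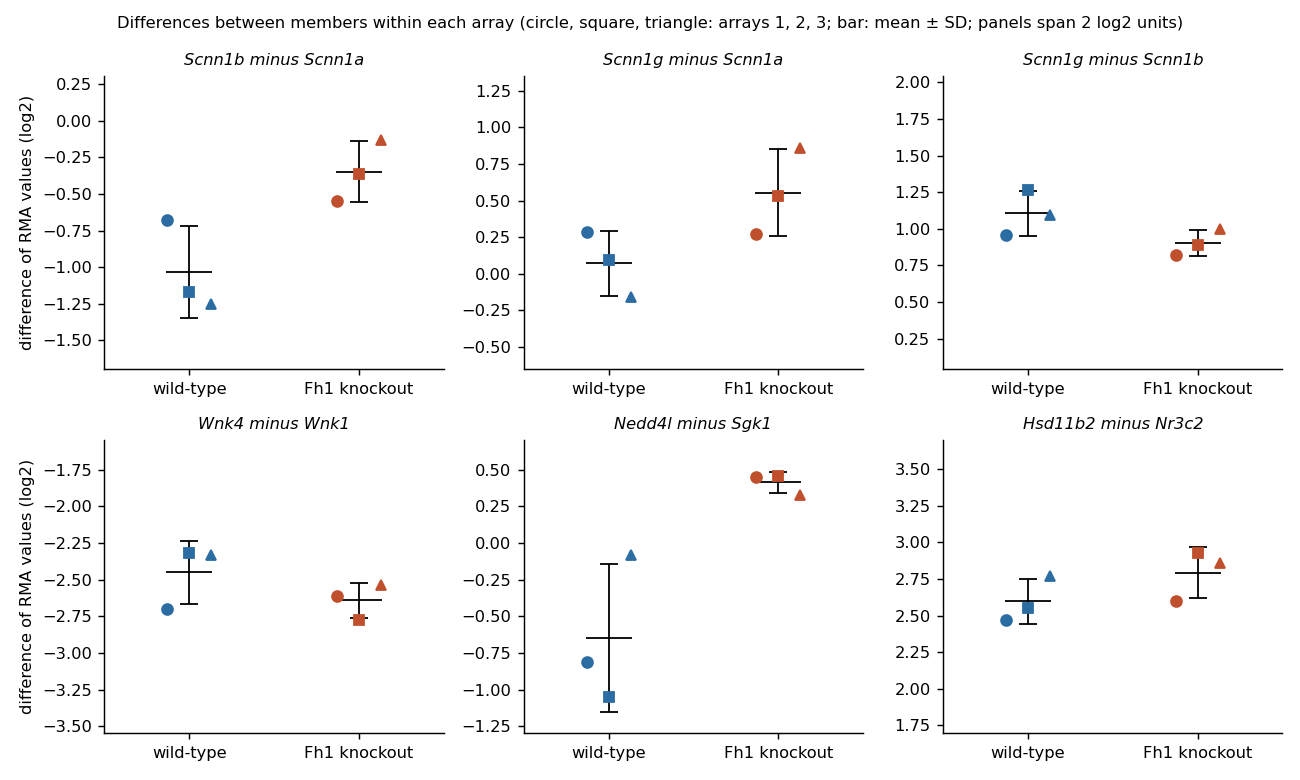
Differences of RMA values (log2, vertical axis) between members of the pathway within each of the 3 wild-type (blue) and 3 knockout (red) arrays, with circles, squares and triangles for arrays 1, 2 and 3 and bars for mean ± SD. Wild-type and knockout arrays stand apart for Scnn1b minus Scnn1a and for Nedd4l minus Sgk1, and they overlap in the other 4 panels.

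Proteases that cleave ENaC and their inhibitors gave 3 higher and 1 lower of 7, and 3 did not pass. Prss8, the channel-activating protease prostasin, fell 2.25-fold. It read 11.39, 11.39 and 11.70 in wild-type and 10.42, 10.30 and 10.25 in knockout arrays (log2 fold change -1.17, SE 0.11, limma adjusted p = 0.000179). St14, the membrane protease matriptase, rose 2.49-fold. It read 8.39, 8.84 and 8.36 in wild-type and 9.93, 9.80 and 9.80 in knockout arrays (log2 fold change 1.32, SE 0.14, limma adjusted p = 0.000275). The groups stood apart for both. The other 2 higher genes, chosen after their values were seen, were the inhibitors of such proteases Spint1 (log2 fold change 0.58, SE 0.09, limma adjusted p = 0.00133) and Spint2 (log2 fold change 0.47, SE 0.09, limma adjusted p = 0.00362). Of the 2 chromatin regulators on the list that repress Scnn1a, Mllt3 rose 1.22-fold (log2 fold change 0.29, SE 0.08, limma adjusted p = 0.0242) and Dot1l did not pass. The call of Mllt3 ended without knockout array 1 or 3 (adjusted p = 0.0529 and 0.0896).

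Nedd4l, the ubiquitin ligase that removes ENaC from the membrane, gave different answers in its 6 probe sets. The brightest, 1423269_a_at, read 10.16, 10.27 and 9.86 in wild-type and 10.30, 10.26 and 10.28 in knockout arrays. Its log2 fold change was 0.18 with a 95% interval from -0.09 to 0.45 in the fit over genes (limma adjusted p = 0.219), and it did not pass. Probe set 1457374_at read 8.48, 8.64 and 8.34 in wild-type and 9.98, 9.73 and 9.74 in knockout arrays. Each knockout array there was more than 1 log2 unit above the highest wild-type array. The change was 2.51-fold higher (log2 fold change 1.33, SE 0.11, limma adjusted p = 0.000117 over 34945 named probe sets), and without any 1 array it was 1.25 to 1.41. Probe set 1437400_at read 5.52, 6.09 and 5.84 in wild-type and 6.51, 6.36 and 6.47 in knockout arrays. It was 1.54-fold higher (log2 fold change 0.63, SE 0.14, limma adjusted p = 0.00995), also with the groups apart.

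The other 3 probe sets of Nedd4l did not pass. Probe set 1441305_at read 6.72, 7.38 and 6.13 in wild-type arrays and 6.81, 6.95 and 6.85 in knockout arrays, which all lay inside the wide wild-type range. Probe sets 1423270_at and 1456044_at, at the 19.0th and 18.7th percentiles of level, had log2 fold changes of -0.26 (limma adjusted p = 0.0743) and -0.26 (limma adjusted p = 0.0508). In both, all 3 knockout arrays lay below all wild-type arrays. Taken within each array, 1457374_at minus 1423269_a_at was -1.68, -1.63 and -1.53 in wild-type and -0.32, -0.52 and -0.54 in knockout arrays. The knockout differences all lay above the wild-type ones. This pair was chosen after its values were seen and was not tested. Which transcript of Nedd4l each probe set reads was not analysed here.

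The within-array difference of Nedd4l, by its brightest probe set, and Sgk1 was -0.81, -1.05 and -0.08 in wild-type and 0.45, 0.46 and 0.33 in knockout arrays. It moved by 1.06 on the log2 scale, and knockout arrays all lay above wild-type ones (exact permutation p = 0.1, n = 3 per group). By group means, Sgk1 differed by -0.88 and Nedd4l by 0.18.

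Paralogs and partners of this step were read from the list as well. Sgk2, a paralog of Sgk1, fell 4.60-fold. It read 11.09, 11.31 and 11.23 in wild-type and 9.03, 8.84 and 9.16 in knockout arrays (log2 fold change -2.20, SE 0.11, limma adjusted p = 1.91e-05). Its wild-type arrays lay close together, unlike those of Sgk1. Sgk3 was 1.25-fold lower (log2 fold change -0.33, SE 0.09, limma adjusted p = 0.0224), a call that ended without wild-type array 1, knockout array 2 or knockout array 3 (adjusted p = 0.0599, 0.0626 and 0.0811). The other 3 of those 5 kinase genes did not pass. Nedd4, the closest paralog of Nedd4l, rose 1.54-fold (log2 fold change 0.62, SE 0.09, limma adjusted p = 0.00153), with wild-type values of 11.27 to 11.54 and knockout values of 11.97 to 12.05. Ywhab, an adaptor protein that binds phosphorylated ligase, rose 1.36-fold (log2 fold change 0.44, SE 0.11, limma adjusted p = 0.0147). In that group of 4, 2 were higher, 1 was lower (Usp10, a deubiquitinase, named after its value was seen) and 1 did not pass.

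Of the 3 genes of the WNK branch, Wnk4 and Wnk1 were lower and Stk39 did not pass. Wnk4, a WNK kinase enriched in the distal nephron, read 9.68, 10.16 and 10.15 in wild-type and 9.39, 9.09 and 9.45 in knockout arrays. Each knockout array read lower than each wild-type array. Means were 9.996 ± 0.27 (SD, n = 3) and 9.31 ± 0.19 (SD, n = 3), a 1.61-fold decrease (log2 fold change -0.69, SE 0.16, limma adjusted p = 0.00948), and the call held with each array left out (log2 fold change -0.58 to -0.85).

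Wnk1, whose gene yields a full-length kinase and a shorter kidney transcript without the kinase domain, was read by 3 probe sets that did not agree. The brightest, 1433676_at, read 12.38, 12.48 and 12.48 in wild-type and 11.997, 11.86 and 11.98 in knockout arrays. The groups stood apart, with means of 12.45 ± 0.06 (SD, n = 3) and 11.95 ± 0.07 (SD, n = 3). The decrease was 1.41-fold (log2 fold change -0.50, SE 0.08, limma adjusted p = 0.00229), and with each array left out it was -0.45 to -0.53 and always called.

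Probe set 1436746_at of Wnk1 went the other way. It read 8.14, 7.95 and 6.77 in wild-type and 8.55, 8.39 and 8.73 in knockout arrays. All knockout values lay above all wild-type values, and wild-type array 3 stood more than 1 log2 unit below the other two. This gave a log2 fold change of 0.94 (SE 0.32, limma adjusted p = 0.0444 over 34945 probe sets). Without wild-type array 3 it was 0.51 (adjusted p = 0.0169), and without knockout array 1, 2 or 3 the call ended (adjusted p = 0.102, 0.0795 and 0.124). The dimmest, 1437888_at, had a log2 fold change of -0.29 and did not pass (limma adjusted p = 0.057), though its knockout arrays all lay below its wild-type arrays. The mean of the 3 probe sets had a log2 fold change of 0.051 (limma adjusted p = 0.727), so the lower call of Wnk1 rests on the brightest one. Within each array, 1436746_at minus 1433676_at was -4.24, -4.53 and -5.71 in wild-type and -3.45, -3.47 and -3.25 in knockout arrays, a pair chosen after its values were seen. Which of the Wnk1 transcripts each probe set reads was not analysed here. Among the 9010 genes with several probe sets, 536 (5.95%) had probe sets called in opposite directions.

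Over all 19 probe sets of the 10 genes, 4 were lower and 3 higher. Of all 34945 named probe sets, 45.5% were called, 24.8% lower and 20.6% higher.

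**Figure D3:**
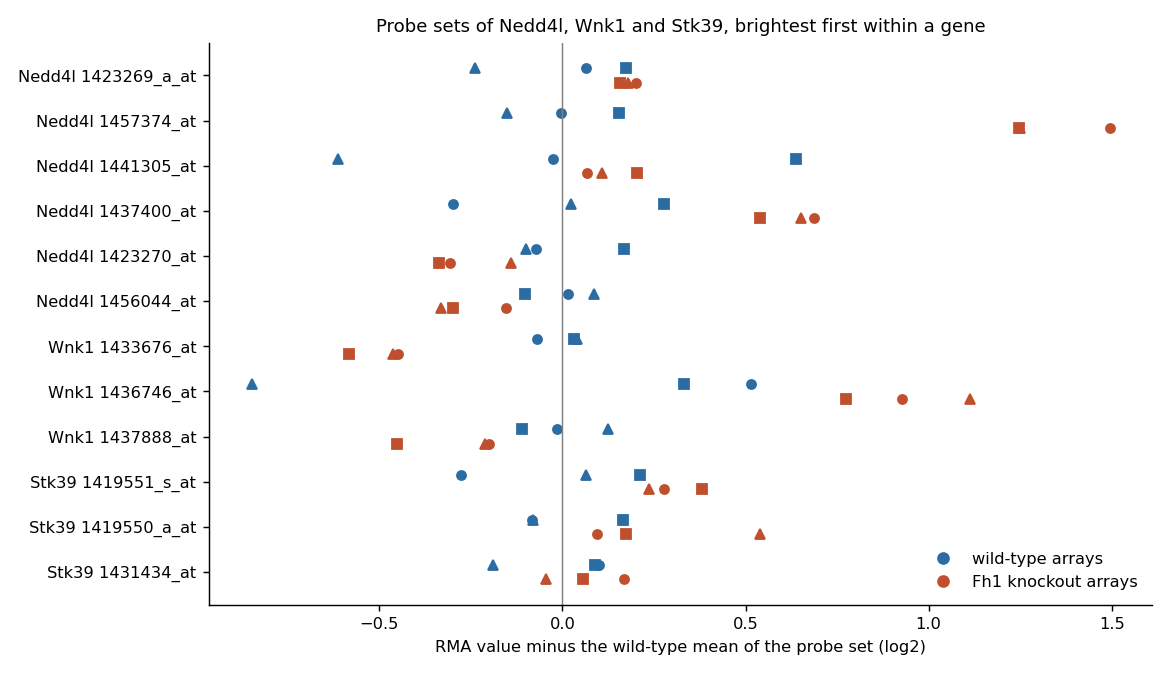
RMA value minus the wild-type mean of the same probe set (log2, horizontal axis) for the 12 probe sets of Nedd4l, Wnk1 and Stk39, with wild-type arrays in blue, knockout arrays in red, and circles, squares and triangles for arrays 1, 2 and 3. All knockout arrays lie to the right of all wild-type arrays for 1457374_at and 1437400_at of Nedd4l, 1436746_at of Wnk1 and 1419551_s_at of Stk39, and to the left for 1423270_at and 1456044_at of Nedd4l and 1433676_at and 1437888_at of Wnk1.

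Stk39, the kinase SPAK that the WNK kinases activate, read 9.01, 9.49 and 9.35 in wild-type and 9.56, 9.66 and 9.52 in knockout arrays by its brightest probe set. The knockout values all lay above the wild-type values, though wild-type array 2 was within 0.1 of the lowest of them. The log2 fold change of 0.30 (SE 0.13) did not pass (limma adjusted p = 0.0893). Without wild-type array 2 it passed at 0.40 (adjusted p = 0.0316), and with array weights at 0.36 (adjusted p = 0.0451). Probe set 1419550_a_at gave 0.27 (limma adjusted p = 0.137) and 1431434_at, at the 9.80th percentile of level, gave 0.060 (limma adjusted p = 0.669). Groups did not overlap for 4 of the 10 genes (Scnn1a, Wnk1, Wnk4 and Stk39), against 62.9% of all genes.

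Of 7 measured partners of the WNK and SPAK kinases and subunits of the ubiquitin ligase that degrades WNK kinases, 2 were lower and 5 did not pass. Cab39l, a paralog of the scaffold protein that activates SPAK, fell 1.41-fold (log2 fold change -0.50, SE 0.08, limma adjusted p = 0.00153), from 10.06 to 10.15 in wild-type to 9.58 to 9.64 in knockout arrays. Wnk2 was 1.28-fold lower (log2 fold change -0.35, SE 0.09, limma adjusted p = 0.0165), but the call ended without knockout array 1 or 3 (adjusted p = 0.0639 and 0.0644), and the mean of its probe sets did not pass (log2 fold change -0.088, limma adjusted p = 0.341). The difference Wnk4 minus Wnk1, by brightest probe sets, moved by -0.19 within arrays and its groups overlapped (exact permutation p = 0.3, n = 3 per group).

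Of 9 measured distal salt and potassium carriers 7 were lower and 2 did not pass, with a median log2 fold change of -1.19. Slc12a3, the thiazide-sensitive cotransporter at the end of the WNK cascade, read 12.40, 12.85 and 12.73 in wild-type and 10.74, 10.32 and 11.21 in knockout arrays, a 3.73-fold decrease (log2 fold change -1.90, SE 0.22, limma adjusted p = 0.000452). Slc26a4, the anion exchanger pendrin of intercalated cells, fell 5.45-fold (log2 fold change -2.45, SE 0.13, limma adjusted p = 2.38e-05). Of 3 measured sodium pump subunits, which drive sodium out across the basolateral membrane, 2 were lower. Fxyd2, the gamma subunit, fell 1.67-fold (log2 fold change -0.74, SE 0.08, limma adjusted p = 0.00037) and Atp1b1, the beta subunit, 1.28-fold (log2 fold change -0.36, SE 0.08, limma adjusted p = 0.0112). Fxyd4, a pump regulator of the collecting duct, had a log2 fold change of 0.48 and did not pass (limma adjusted p = 0.0589; chosen after its value was seen). Slc12a3, Slc26a4 and Fxyd4 are also among the segment markers counted above, as are Kcnj1 and Slc12a1 of the carrier list.

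Over the whole list of other pathway genes, 47 of 50 were measured, 19 were lower, 8 higher and 20 did not pass. The share called was 57.4%, against 49.2% of all genes and 58% of the genes at or above the median level. The mean log2 level of the list ran from 9.34 to 9.68 over the arrays, above the median of 7.37 for genes tested. Its share called was thus close to that of the brighter genes. The median log2 fold change of the 47 genes was -0.23. It was -0.024 for the 10 members, -0.11 for all genes and 0.052 for the genes at or above the median level.

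**Figure D4:**
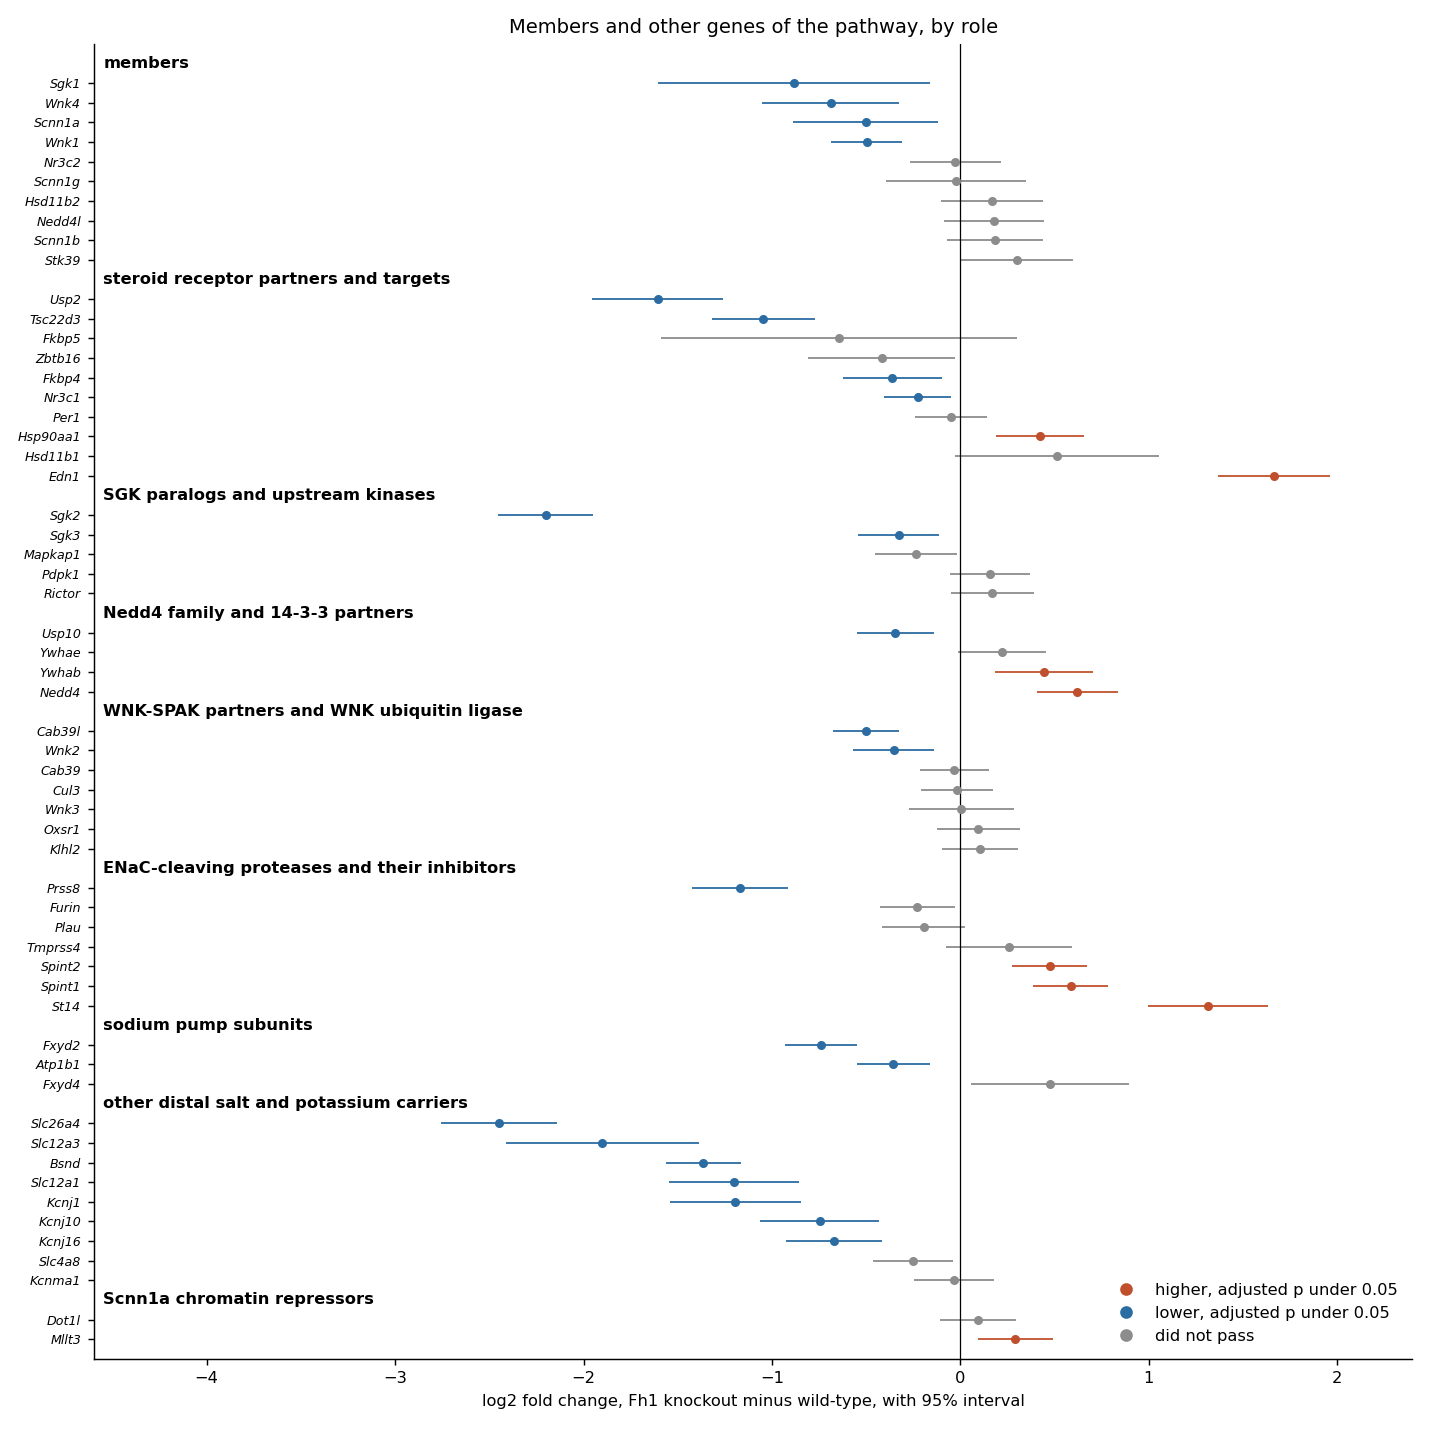
log2 fold change (knockout minus wild-type, horizontal axis) with its 95% limma interval for the 10 members and the 47 measured other pathway genes, grouped by role and ordered by size, with blue for lower, red for higher and grey for genes that did not pass. The members lie between -0.88 and 0.30, while Slc26a4, Sgk2 and Slc12a3 lie at -2.45, -2.20 and -1.90.

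The order of the arrays within a group was also read for each member. Wild-type array 2 was the highest wild-type array for 8 of the 10 genes, all but Scnn1a and Wnk1, against 29.9% of all genes. Wild-type array 1 was the lowest for 7 of them, against 31.4% of all genes, and array 3 for Nr3c2, Sgk1 and Nedd4l. Among knockout arrays, array 1 was the lowest for 4 of the 10 genes (Scnn1b, Scnn1g, Nr3c2 and Hsd11b2), against 34.7% of all genes, and array 2 for another 4. Knockout array 3 was the highest for 6 (those of array 1, Sgk1 and Wnk4), against 33.7% of all genes. Knockout array 1 was also the lowest for 7 of 9 principal cell markers, 4 of 7 intercalated cell markers, 9 of 10 immune markers and 7 of 8 fibroblast and matrix markers, but for 3 of 8 thick limb and distal convoluted tubule markers, 0 of 8 proximal tubule markers and 12 of 47 other pathway genes. The median SD of the 10 genes was 0.20 in wild-type and 0.07 in knockout arrays, and that of all genes 0.14 and 0.09. The part that cell composition has in these orders was not tested.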

How the data were processed

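Kidney epithelium from 3 Fh1 knockout and 3 wild-type samples was compared. Of the 6 arrays the authors deposited RMA log2 values for 45101 probe sets in 1 table (RMA is named in the submitters' processing notes; values of 2.90 to 14.8 gave the log2 scale). The sources used here give no version, software or chip definition. Background correction and normalisation in RMA compress the folds of dim genes. Array medians ran from 6.20 to 6.25.

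Gene names came from the platform annotation, with symbols updated by RefSeq (GRCm38.p6). A single gene was given for 34945 probe sets; 932 with several genes, 9160 with none and 64 controls were left out. Each of 18193 genes was read by its brightest probe set. The group difference was tested two-sided in limma 3.58.1 under R 4.3.3 (lmFit, eBayes), without covariates or a filter, with Benjamini-Hochberg adjustment across all genes and a threshold of 0.05. Values of single probe sets beyond the brightest come from the same fit over the 34945 named probe sets. Differences between members used exact permutation of the arrays. The code of the fit was run on simulated arrays with independent noise and few changed genes. That setting differs from these data, so it says nothing on the calls made here.

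The members and the gene lists were chosen with earlier results of these data known. The text names genes from each pathway role group and from the principal cell list. These are up to 2 called genes with the largest change, or else the gene with the smallest p. Most genes named beyond this rule are marked as chosen after their values were seen. The other marker lists are described by counts and medians. Alternatives were the mean of a gene's probe sets, brighter genes alone, a trended robust prior, array weights, a replicate block, quantile normalisation or median centring of the arrays, a threshold of 0.01 and each array left out. Plots used matplotlib 3.10.9 under Python 3.11.15.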

Additional observations from a re-analysis of the deposited data

How the results depend on the processing

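The 4 members called lower numbered 2 to 3 with each array left out, 2 at a threshold of 0.01, and 3 with the mean of all probe sets, brighter genes alone, a trended robust prior or array weights. Members called higher numbered 0 to 1 with each array left out and 1 with array weights. Other pathway genes called higher numbered 5 and lower 13 at a threshold of 0.01, against 8 and 19; with each array left out they numbered 7 to 10 and 15 to 22. All genes called numbered 5278 among the brighter genes, where fewer were tested, 5011 at 0.01 and 6277 to 8670 with each array left out, against 8959. Lower genes made up 56.2% of all calls, and 67.0% when the median tested gene was set equal on all arrays, but 44.2% among the brighter genes; the 4 lower members kept their calls with that centring and with quantile normalisation. Signs turned for Wnk1 with the mean of its probe sets (0.051) and in 1436746_at (0.94), and for Nedd4l in 1423270_at (-0.26) and 1456044_at (-0.26). With each array left out, values that turned sign ran from -0.16 to 0.12 for Scnn1g, -0.12 to 0.037 for Nr3c2, -0.18 to 0.44 for 1441305_at of Nedd4l and -0.035 to 0.11 for 1431434_at of Stk39; none of these was called. The difference Wnk4 minus Wnk1 moved by -0.74 with the mean of all probe sets, against -0.19. The causes were not tested. The probe sets of Nedd4l, Wnk1 and Stk39 were refitted with each array left out after the data were seen. Same-numbered arrays did not deviate together (correlations across genes of -0.10, -0.13 and -0.13), so the numbers were not taken as pairs; with a replicate block 4 members were lower, 0 higher and 7440 genes called, and with the block 7 other pathway genes were higher and 18 lower. The data have 3 arrays per group and no detection calls, so whether a dim probe set was above background was not tested.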
